A study of Mus musculus with 6 samples.

Results

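The genes described here are 10 genes of the Notch pathway: the receptor genes Notch1, Notch2 and Notch3, the ligand genes Jag1, Jag2 and Dll1, the DNA-binding factor gene Rbpj, and the target genes Hes1, Hey1 and Heyl. They were chosen by symbol from the 54838 genes of the deposited table, and all 10 were found in it. RNA was sequenced from mouse B16F10 melanoma cells, a pigmented tumour line, in 3 control libraries and in 3 libraries of cells given fenofibrate at 50 µM, which the submitters call biological triplicates. Fenofibrate is a lipid-lowering drug whose active form activates the nuclear receptor PPARα. No genotype, transgene or further agent is named for either group, and the vehicle and treatment time are not given in the sources used here. The cell line field names a different line for each library, from B16F10 to B16F15, so that, if meant as written, line and treatment cannot be told apart. Beyond the term biological triplicates and this field, nothing in the labels says that the libraries came from separate cultures. The p-values then measure only the spread between these libraries.

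Notch receptors sit in the cell membrane and bind ligands of the Jagged and Delta families on neighbouring cells. Binding lets the proteases ADAM10 and γ-secretase release the intracellular part of the receptor, which joins the DNA-binding protein RBPJ and turns RBPJ from a repressor into an activator. The best known targets are the HES and HEY genes, which encode transcriptional repressors of the basic helix-loop-helix class. In the melanocyte lineage, Notch signalling through Hes1 is known for keeping melanoblasts and melanocyte stem cells alive.

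The libraries held 13540038 to 14710856 counts, so that the upper limit for a gene at 0 in a library (3 counts) was 0.204 to 0.222 CPM (counts scaled to library size), which covers counting error only. All 7 melanocyte markers looked up were counted. Their summed levels were 6159 to 6581 FPKM (the deposited level per transcript length and library depth) in control and 7255 to 7701 with fenofibrate. Of the 7, 5 were called higher (edgeR). Over all genes tested, 19.5% were called higher and 19.5% lower. Of 6 endothelial markers, Cdh5, Cldn5, Emcn, Kdr and Tek were at 0 in all libraries and the list summed to at most 0.0738 FPKM. The T cell markers summed to 1.07 to 1.24 FPKM in control and 0.702 to 1.04 with fenofibrate, with Cd3d, Cd3e and Cd8a at 0. Lck had 79, 71 and 72 counts in control and 43, 65 and 70 with fenofibrate and was not called (adjusted p = 0.211, edgeR). The macrophage markers summed to 1.03 to 1.67 and 1.78 to 3.11 FPKM, with Adgre1 and Itgam at 0. Cd68 had 28, 47 and 26 counts against 82, 45 and 63 and was called higher, though its groups overlapped (adjusted p = 0.0489, edgeR). The fibroblast and mural markers summed to 1.88 to 2.32 and 1.01 to 1.21 FPKM, with Rgs5 at 0. Pdgfrb had 198, 186 and 194 counts against 102, 96 and 122 and was called lower (adjusted p = 0.00115, edgeR). The part of these shifts in the results below was not tested.

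With fenofibrate, the RNA of the ligand gene Jag1 and of the target gene Hes1 rose, while that of the second Jagged gene, Jag2, fell. Among the receptors, Notch2 rose slightly and Notch1 and Notch3 did not pass the test, nor did Rbpj. Of the 7 genes with enough counts to be tested, 3 were called higher and 1 lower at an adjusted p of 0.05 (edgeR). Over all 13629 genes tested, 39.1% were called, 19.5% higher and 19.5% lower, so that 4 calls among 7 genes stand against a high background. On normalised CPM the groups did not overlap for 5 of the 7, with 3 genes higher and 2 lower. Such a separation was found in 53.3% of all genes tested, 26.4% higher and 26.9% lower. The median log2 fold change of the 7 was 0.12, against 0.00 for all genes tested. Hey1 and Dll1 had too few counts for the test and Heyl was counted 0 times in every library. In bulk RNA, a change in the share of cells that express a gene and a change in RNA per cell cannot be told apart.

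**Figure D1:**
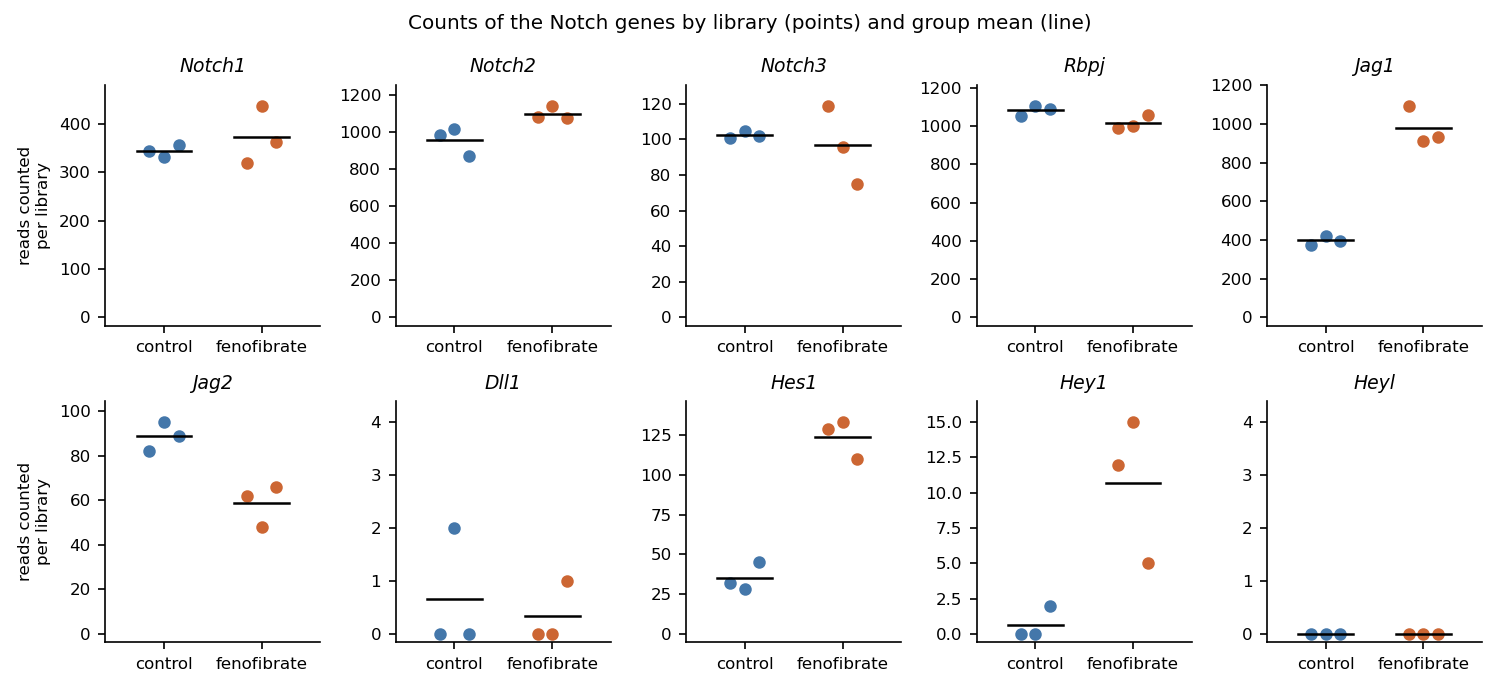
Reads counted per library (vertical axes, each panel with its own scale from 0) for the 10 Notch genes in control and fenofibrate libraries, with points for libraries and lines for group means. The groups stand apart for Jag1, Jag2, Hes1, Hey1 and Notch2, overlap for Notch1 and Notch3, and Heyl lies at 0 throughout.

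Jag1 encodes Jagged1, a ligand that spans the membrane of the signal-sending cell. Its counts were 377, 422 and 395 in control cells and 1095, 912 and 931 in treated cells. Every fenofibrate library lay above every control, and the first fenofibrate library was the highest. Normalised CPM averaged 28.4 ± 1.15 in control and 70.6 ± 10.4 with fenofibrate (SD, n = 3 each). The rise of 1.31 ± 0.11 SE on the log2 scale is 2.48-fold with a 95% interval from 2.09 to 2.95 (edgeR's quasi-likelihood test, Benjamini-Hochberg adjusted p = 0.00012). By size of change it ranked 456 of 13629 genes, and no annotated gene shares its exons. The gene, ENSMUSG00000027276, lies on the minus strand of chromosome 2 from 137081456 to 137116644 (GRCm38).

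The stretches of DNA before the first exons of Jag1 and Lfng are shown because these were, among the genes tested, the ligand gene and the receptor-modifying gene that rose most (Lfng, which encodes a fringe enzyme, is described further on). They come from RefSeq's GRCm38.p6 annotation, run 5′ to 3′ on the gene's strand, and stop before the first base of any annotated exon. Capitals mark matches, on either strand, to TGGGAA (the core that RBPJ binds), CACGTG (an E-box read by HEY and by many other factors) and CACGCG (the site read by HES and HEY proteins).
Jag1, chr2:137116645-137116770, minus strand: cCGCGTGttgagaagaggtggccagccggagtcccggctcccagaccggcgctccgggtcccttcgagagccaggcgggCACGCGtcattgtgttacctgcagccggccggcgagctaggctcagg
Lfng, chr5:140607091-140607319, plus strand: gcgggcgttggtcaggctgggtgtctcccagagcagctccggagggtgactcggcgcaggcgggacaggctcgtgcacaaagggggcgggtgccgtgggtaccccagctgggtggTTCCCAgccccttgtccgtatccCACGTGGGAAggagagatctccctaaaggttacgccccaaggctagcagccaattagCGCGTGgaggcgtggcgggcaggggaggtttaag
The Jag1 stretch of 126 bases held CACGCG at 2 places (bases 2 to 7 and 80 to 85) and no TGGGAA. The Lfng stretch of 229 bases held TGGGAA at bases 116 to 121 and 143 to 148, the second overlapping CACGTG at bases 139 to 144, and CACGCG at bases 196 to 201. Among 32817 mouse promoters of 300 bases (250 before to 50 after the start), 25.6% held TGGGAA, 7.15% CACGTG and 9.26% CACGCG. Of the 10 Notch genes, 7 had a promoter in that table, not Hes1, Hey1 or Heyl. In the windows of 300 bases, TGGGAA occurred in Rbpj alone among those 7, at 2 places in 1 of its promoters and at 1 in the other, whose windows overlap. CACGCG also occurred at 1 place each in the windows of Jag2, which fell, and of Notch2, and in 1 of the 2 promoters of Dll1. A match describes letters and does not show binding.

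Jag2 encodes the related ligand Jagged2. It was counted 82, 95 and 89 times in control and 62, 48 and 66 times with fenofibrate, so that all 3 fenofibrate libraries lay below the controls. The fall was 1.5-fold (log2 fold change -0.58 ± 0.16 SE, 95% interval -0.97 to -0.20, adjusted p = 0.0251 with edgeR). This call is not firm. Leaving out control replicate 2 or 3 ended it (adjusted p = 0.0721 and 0.0648), as did leaving out fenofibrate replicate 2 (0.0644) and using DESeq2 (0.0715). ENSMUSG00000002799 lies on the minus strand of chromosome 12 from 112907819 to 112929776.

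The 2 Jagged genes thus moved in opposite directions within the same libraries. The ratio of their FPKM values needs no scaling between libraries. It was 6.22, 6.0 and 6.0 in control and 23.9, 25.7 and 19.1 with fenofibrate. The mean went from 6.07 ± 0.123 to 22.9 ± 3.42 (SD, n = 3 each), with an exact two-sided permutation p of 0.1, the smallest that 3 against 3 libraries can give. Jag1 took 85.1% ± 0.636 of the summed FPKM of the Jagged and Delta ligand genes in control and 94.99% ± 0.566 with fenofibrate.

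Dll1, the first Delta-like ligand gene, was counted 0, 2 and 0 times in control and 0, 0 and 1 times with fenofibrate. Its groups overlap at a level near that of a single read, and no difference was detectable at this depth. Dll3 had 3 counts in each group and Dll4 had 3 counts in control and 10 with fenofibrate, where the exact counting interval of the ratio (3.23, 95% interval 0.831 to 18.2) includes no change. ENSMUSG00000014773, the Dll1 gene, lies on the minus strand of chromosome 17 from 15367354 to 15376872.

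Notch2 was the receptor gene with the highest level. It was counted 982, 1016 and 869 times in control and 1079, 1141 and 1076 times with fenofibrate, and the lowest fenofibrate library stood above the highest control. The rise was small, at a log2 fold change of 0.21 ± 0.07 SE (1.16-fold, 95% interval 1.04 to 1.29, adjusted p = 0.0400 with edgeR). This call held in 3 of 14 alternative settings. Leaving out control replicate 1, 2 or 3 ended it (adjusted p = 0.0602, 0.0580 and 0.101), as did leaving out fenofibrate replicate 1 or 2 (0.107 and 0.106). ENSMUSG00000027878 lies on the plus strand of chromosome 3 from 98013527 to 98150361.

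Notch1 was counted 343, 331 and 356 times in control and 319, 437 and 362 times with fenofibrate. Its fenofibrate libraries lay on both sides of the controls, and on the log2 scale they differed by 0.12 ± 0.11 SE (95% interval -0.13 to 0.38, adjusted p = 0.406, edgeR). Notch3 was counted 101, 105 and 102 times in control, a narrow range, and 119, 96 and 75 times with fenofibrate. On the log2 scale it differed by -0.07 ± 0.20 SE (interval -0.53 to 0.39, adjusted p = 0.802, edgeR), a value that became 0.10 without fenofibrate replicate 3. Notch4, a receptor gene known from blood vessels and no member of the 10, had 22 counts in control and 23 with fenofibrate. Notch1 (ENSMUSG00000026923) lies on chromosome 2 from 26457903 to 26516663 and Notch3 (ENSMUSG00000038146) on chromosome 17 from 32120820 to 32166880, both on the minus strand. Of the 3 receptor genes tested, 1 was called higher and 0 lower, 33.3% called against 39.1% of all genes.

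Rbpj, the DNA-binding factor through which all Notch receptors act, was counted 1050, 1106 and 1091 times in control and 990, 1002 and 1059 times with fenofibrate. On normalised CPM the 3 fenofibrate libraries lay below the controls, but the difference was small. On the log2 scale it was -0.08 ± 0.05 SE (95% interval -0.20 to 0.03, adjusted p = 0.234 with edgeR), which places a fall to below 0.872 of control outside the interval. ENSMUSG00000039191 lies on the plus strand of chromosome 5 from 53466152 to 53657362.

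Per length, Notch2 stood first in control cells with 6.20 ± 0.428 FPKM (mean ± SD, n = 3), followed by Jag1 with 4.24 ± 0.166 and Rbpj with 3.84 ± 0.0732, and these did not overlap. Notch1 came next with 1.58 ± 0.0852 FPKM. Notch3 (0.928 ± 0.00448), Hes1 (0.889 ± 0.237) and Jag2 (0.699 ± 0.0402) followed, with neighbours that overlapped, and Hey1 and Dll1 were near 0. With fenofibrate, Jag1 stood first at 10.2 ± 1.48 FPKM, above Notch2 at 6.91 ± 0.330, and Hes1 moved up to 3.05 ± 0.388, above Notch1. On merged exon lengths Rbpj stood above Jag1 in control (6.17 against 4.96 FPKM), while Jag1, Notch2, Rbpj and Hes1 kept this order with fenofibrate. Among the receptor genes Notch2 took 70.8% ± 2.25 of the summed FPKM in control and 73.1% ± 1.34 with fenofibrate.

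**Figure D2:**
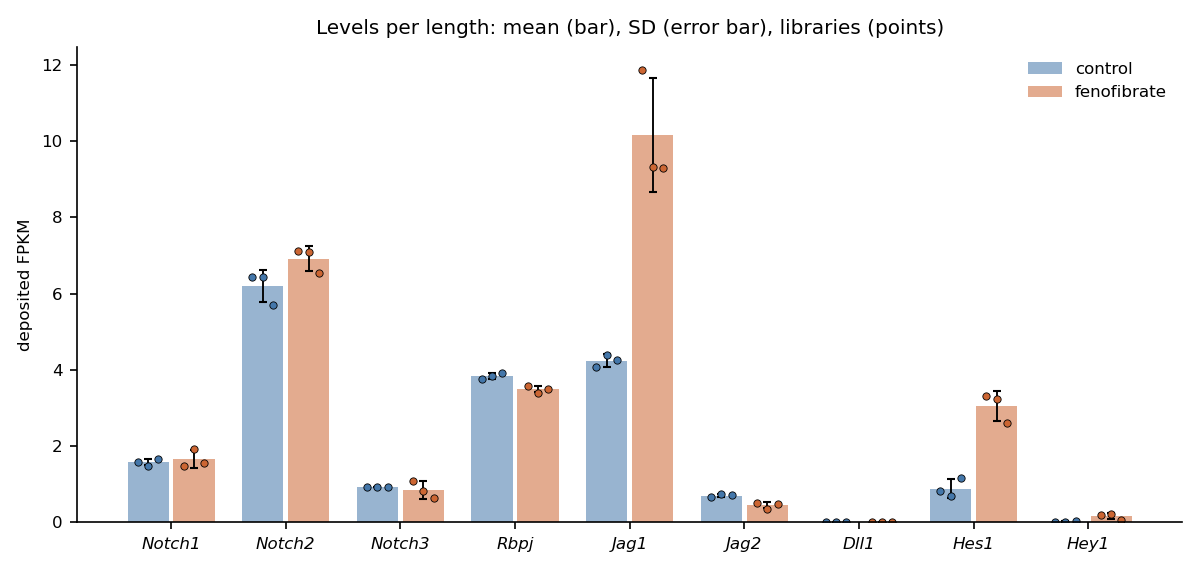
Deposited FPKM (vertical axis, from 0) of 9 of the Notch genes in control and fenofibrate libraries, with bars for means, error bars for the SD of 3 libraries and points for libraries; Heyl, at 0 throughout, is not drawn. Jag1 goes from below Notch2 in control (4.24 against 6.20) to above it with fenofibrate (10.2 against 6.91).

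Hes1 encodes a repressor that is a direct target of Notch in many tissues and also responds to other signals. It was counted 32, 28 and 45 times in control and 129, 133 and 110 times with fenofibrate. The groups were far apart for a gene with so few counts, the lowest fenofibrate library standing at 110 and the highest control at 45. In normalised CPM, control cells stood at 2.51 ± 0.679 and treated cells at 8.93 ± 1.13 (SD, n = 3 each). The rise of 1.83 ± 0.21 SE on the log2 scale is 3.56-fold with a 95% interval from 2.53 to 4.99 (adjusted p = 0.000514, edgeR), and it ranked 192 of 13629 genes by size of change. ENSMUSG00000022528 lies on the plus strand of chromosome 16 from 30064384 to 30067796, and no annotated gene shares its exons. Over the 6 libraries, and among 7185 genes with at least 5 FPKM in a group, the genes whose normalised CPM on the log2 scale followed Hes1 most closely were Pold4, Zxdb and Ap1b1 (Pearson's r 0.9977 to 0.9985), a description over 6 points that fall into the 2 groups.

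Hey1, a second repressor gene of this class, was counted 0, 0 and 2 times in control and 12, 15 and 5 times with fenofibrate. Every fenofibrate library was above every control, and all of them were thinly counted, at 0.0104 ± 0.0181 FPKM in control and 0.161 ± 0.0787 with fenofibrate (SD, n = 3 each). The ratio of the summed counts, relative to library totals, was 15.5 with an exact counting interval from 3.95 to 133 (95%, counting error only). The gene did not pass the filter on low counts. Without that filter edgeR gave an adjusted p of 0.0301 in a fit that called 19.6% of 23561 genes, and DESeq2 gave 0.0146 in a fit that called 30.0% of 15332 genes. The exact two-sided permutation p was 0.1, the smallest possible here. ENSMUSG00000040289 lies on the minus strand of chromosome 3 from 8663359 to 8667256.

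Heyl (ENSMUSG00000032744, plus strand of chromosome 4, 123233556 to 123249875) had no count in any of the 6 libraries. Of the other HES and HEY genes looked up, Hes2, Hes5 and Helt were also at 0 and Hes3 had 1 count in all. Hes6, whose product antagonises Hes1, had 128, 150 and 152 counts in control and 146, 126 and 138 with fenofibrate, and its groups overlap (log2 fold change -0.06 ± 0.13 SE, adjusted p = 0.747, edgeR). Hey2 had 12, 16 and 11 counts against 15, 16 and 17 (adjusted p = 0.434). Hes7, the segmentation clock gene, had 6, 7 and 8 counts against 2, 1 and 0, a ratio of 0.138 with an exact counting interval from 0.0264 to 0.463. It was below the filter, with an adjusted p of 0.0373 without the filter (edgeR) and of 0.0832 with DESeq2. Hes7 shares 234 exon bases with 9130213A22Rik, a more highly counted gene on the other strand. Of 10 HES and HEY genes, 3 passed the filter, and of these Hes1 was called (edgeR), 33.3% against 39.1% of all genes. The number called higher was 2 without the filter (edgeR or limma), with DESeq2, and without control replicate 1, 2 or 3 or fenofibrate replicate 3. The added gene was Hey1. In the fits that left out 1 library, Hey1 passed the filter through fenofibrate libraries alone. The number called lower was 1 without the filter (edgeR or limma).

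Further genes of the pathway were read from 9 lists with 102 distinct genes, of which 77 were tested. Of the 70 tested genes outside the 10, 16 were called higher and 16 lower, 45.7% of them against 39.1% over all genes. Their median log2 fold change was 0.03. The called genes include Lfng and Dlk2, each of which passed the filter on low counts only through the group where its counts were higher. Of the 36 called genes of the lists, 22 kept their call whichever library was left out, and 20 kept it in all 14 alternative settings that tested them.

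**Figure D3:**
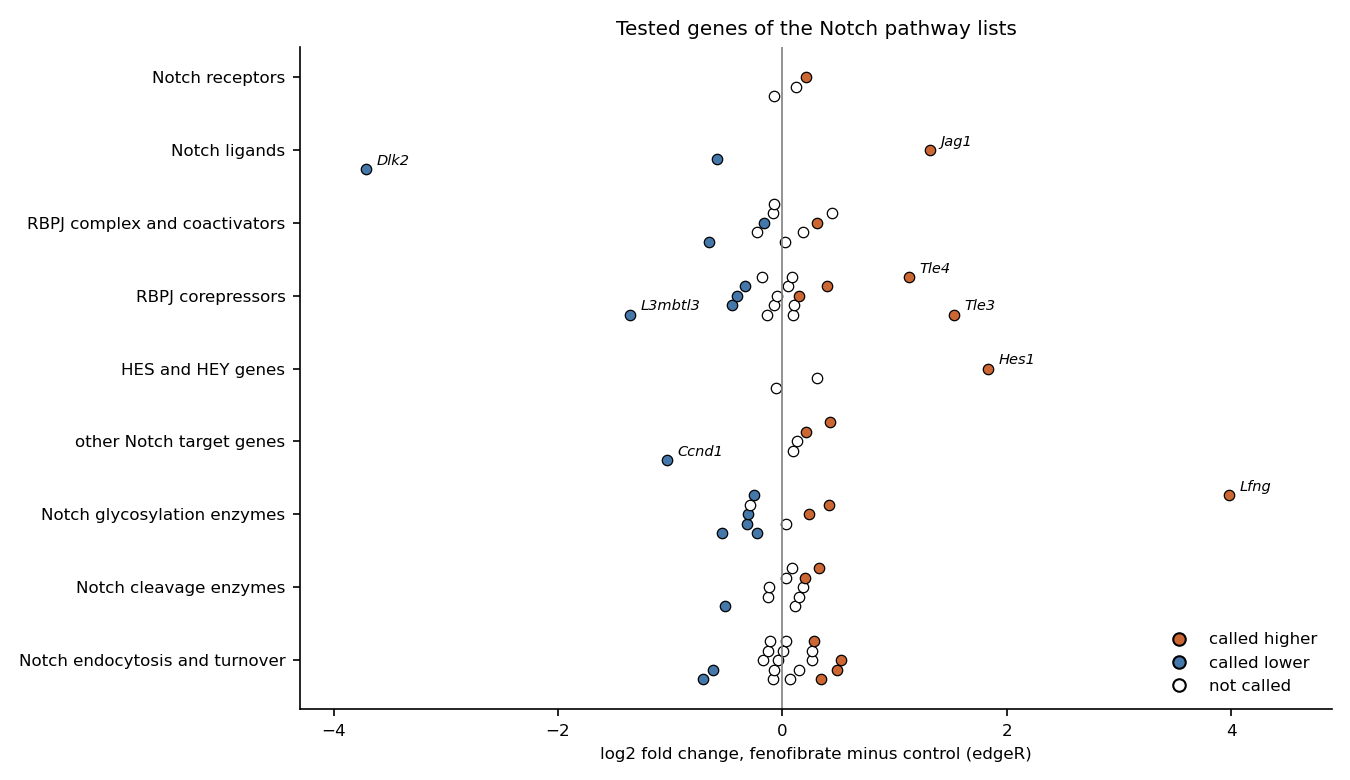
Log2 fold change with fenofibrate (horizontal axis) for the 77 tested genes of the 9 Notch pathway lists, 1 point per gene, filled where the gene was called (orange higher, blue lower) and open where it was not; the height within a list has no meaning. Most points lie near 0, and Lfng, Hes1, Tle3, Jag1, Tle4, Ccnd1, L3mbtl3 and Dlk2 changed at least 2-fold.

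Lfng, Mfng and Rfng encode the fringe enzymes, which add a sugar to O-fucose on Notch and so shift the response between Delta and Jagged ligands. Lfng was counted 3, 4 and 0 times in control and 33, 34 and 49 times with fenofibrate. All 3 fenofibrate libraries lay far above the controls (log2 fold change 3.99 ± 0.51 SE, 15.8-fold, 95% interval 6.98 to 36, adjusted p = 0.000844 with edgeR). Lfng passed the filter on low counts through its fenofibrate libraries alone. Mfng went the other way in its counts, from 16, 7 and 10 to 0, 4 and 0. It was below the filter, with a ratio of 0.117 (exact counting interval 0.0302 to 0.330) and adjusted p values of 0.0699 without the filter (edgeR) and 0.0382 with DESeq2. Rfng, the most counted of the 3, had 225, 368 and 381 counts in control and 379, 208 and 199 with fenofibrate, and its groups overlap (adjusted p = 0.498, edgeR).

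The other sugar-adding enzymes split. Eogt, which puts N-acetylglucosamine on the epidermal growth factor-like repeats, rose 1.34-fold and the xylosyltransferase gene Gxylt1 1.18-fold. Gxylt2, its paralog, was 1.46-fold lower, and Kdelc1 and Kdelc2, which add glucose to these repeats, were 1.25-fold and 1.19-fold lower. Xxylt1 was 1.24-fold lower. In all, 3 enzymes of the 10 tested rose and 5 fell (adjusted p from 0.000844 to 0.0295, edgeR), 80% called against 39.1% of all genes. Their median log2 fold change was -0.24. Both the share and the lowest adjusted p include Lfng, which passed the filter through its fenofibrate libraries alone. Pofut1, which adds the O-fucose itself, had a log2 fold change of 0.03 ± 0.23 SE (adjusted p = 0.927). The calls of Gxylt1 and Xxylt1 were lost in 5 and 4 of the 6 fits that left out 1 library (adjusted p up to 0.0900 without control replicate 1 and 0.0938 without control replicate 2), and that of Kdelc2 without control replicate 1 (0.0545).

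Dlk1 and Dlk2 encode membrane proteins that resemble ligands but lack the domain for activating Notch. Dlk2 was counted 11, 17 and 16 times in control and 1, 2 and 0 times with fenofibrate, 13.1-fold lower in the fit (-3.71 ± 0.59 SE on the log2 scale, adjusted p = 0.00233, edgeR). The ratio rests on 3 counts with fenofibrate, and Dlk2 shares 51 exon bases with the better counted gene Abcc10 on the other strand. Dlk2 passed the filter through its control libraries alone. Dlk1 was counted 10, 2 and 10 times in control and 0 times in every fenofibrate library, at least 7.57-fold lower against a floor of 3 counts over the group. It was below the filter, with adjusted p values of 0.0471 without the filter (edgeR) and 0.00737 with DESeq2. Those fits called 19.6% and 30.0% of their genes. Dner was at 0.

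**Figure D4:**
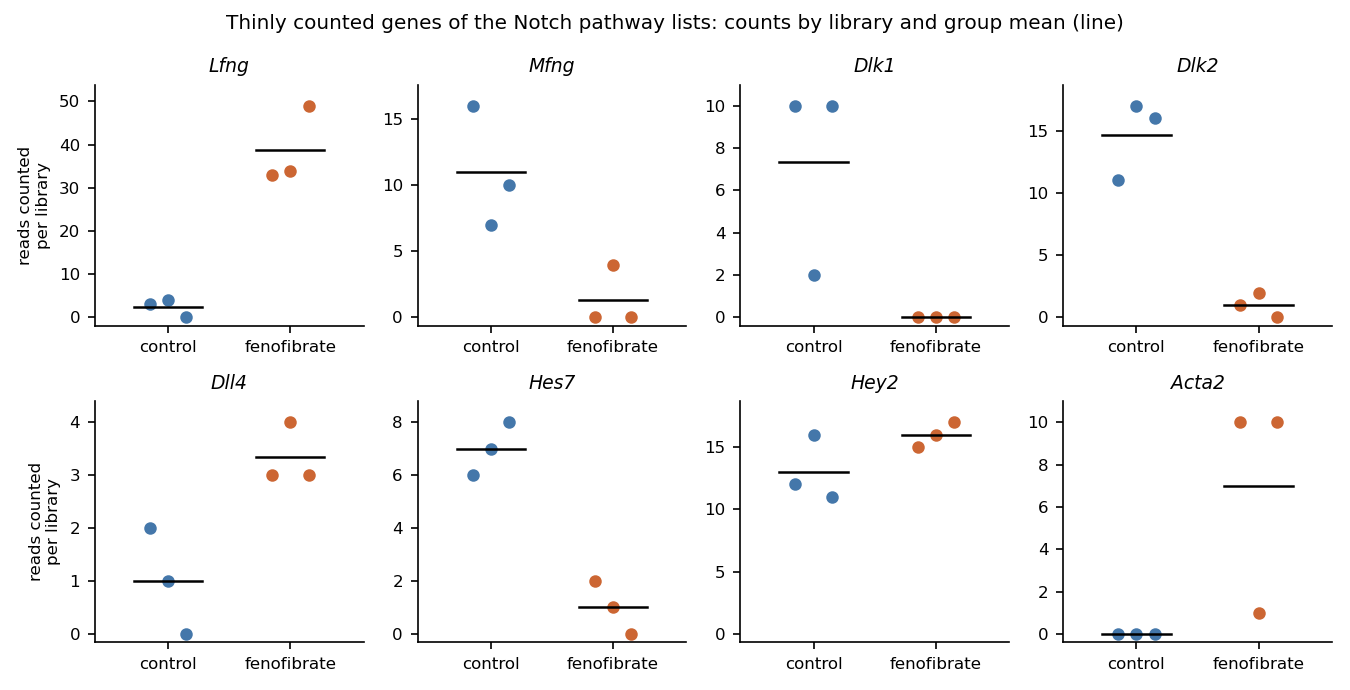
Reads counted per library (vertical axes, each panel with its own scale from 0) for 8 thinly counted genes of the Notch pathway lists, with points for libraries and lines for group means. Lfng, Acta2 and Dll4 are higher in all 3 fenofibrate libraries and Mfng, Dlk1, Dlk2 and Hes7 lower, all at 49 counts or fewer. Acta2 has 1 count in fenofibrate replicate 2, and Dll4 has at most 4 counts in any library.

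Corepressors that RBPJ and the HES and HEY proteins recruit moved in both directions. Tle3 and Tle4 encode Groucho proteins, which HES and HEY repressors bind. Tle3 was counted 494, 551 and 490 times in control and 1416, 1607 and 1388 times with fenofibrate, a rise of 2.89-fold (log2 fold change 1.53 ± 0.08 SE, adjusted p = 1.67e-05, edgeR). Tle4 was counted 370, 325 and 308 times against 733, 785 and 667 times, a rise of 2.19-fold (1.13 ± 0.10 SE). In neither gene did the groups overlap. L3mbtl3, a methyl-lysine reader that binds RBPJ and represses its targets, was counted 934, 1122 and 1000 times in control and 424, 334 and 426 times with fenofibrate. All fenofibrate libraries lay below the controls, 2.56-fold lower on average (-1.36 ± 0.12 SE on the log2 scale, adjusted p = 0.000151, edgeR).

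Smaller falls were called in Ctbp2 (1.37-fold lower), the demethylase gene Kdm1a (1.32-fold lower) and Ncor1 (1.26-fold lower). Tle1 rose 1.32-fold and Kdm5a 1.11-fold, calls that were lost in 5 and 4 of the 6 fits that left out 1 library (adjusted p up to 0.0997 and 0.0840, without control replicates 1 and 3). Among 16 tested genes of the corepressor list 4 rose and 4 fell, 50% called against 39.1% of all genes, at a median log2 fold change of 0.00. Sharpin, which was not called, is in this list but is not an established corepressor of RBPJ. Spen, the large corepressor that tethers histone deacetylases to RBPJ, had a log2 fold change of -0.14 ± 0.06 SE (adjusted p = 0.0994, edgeR).

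Among the coactivators, Ep300, an acetyltransferase of the active Notch complex, rose 1.24-fold (adjusted p = 0.00996, edgeR). Kat2a, another acetyltransferase gene, fell 1.58-fold (log2 fold change -0.66 ± 0.04 SE, adjusted p = 4.88e-05, edgeR). Snw1 was 1.12-fold lower, shares 44.2% of its exon bases with Slirp on the other strand, and lost its call in 3 of the 6 fits that left out 1 library (adjusted p up to 0.0733, without control replicate 2). The Mastermind genes Maml1 to Maml3, whose products bridge receptor and RBPJ, were not called (log2 fold changes of -0.23, 0.45 and -0.08). In this list 1 gene of 9 tested rose and 2 fell, 33.3% called against 39.1% of all genes, and the median was -0.08.

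Among 10 tested genes of receptor cleavage (proteases and their partners) 2 rose and 1 fell, 30% called against 39.1% of all genes, at a median log2 fold change of 0.10. Psen2, a catalytic subunit of γ-secretase, fell 1.43-fold (112 ± 10.3 to 78.6 ± 6.76 normalised CPM, mean ± SD, n = 3 each), with an adjusted p of 0.00320 (edgeR). Ncstn, the subunit that receives the substrate, rose 1.25-fold and Adam10 1.15-fold. The Adam10 call was lost in 4 of the 6 fits that left out 1 library (adjusted p up to 0.108, without control replicate 1), and Ncstn shares exon bases with Copa, a more highly counted gene on the other strand.

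In the list of endocytosis and turnover genes, 4 of 18 tested rose, 2 fell and 12 were not called (median 0.02). The share called was 33.3%, against 39.1% of all genes. The ubiquitin ligase genes Nedd4l and Nedd4 rose 1.44-fold and 1.40-fold, and the Deltex gene Dtx3l fell 1.64-fold (adjusted p = 0.00179, edgeR). Dtx3l shares 458 exon bases with Parp9, a more highly counted gene on the other strand. Dtx3 and Mib2 rose 1.27-fold and 1.21-fold and Epn2, an endocytic adaptor gene, fell 1.54-fold. These 3 calls were lost in 3, 6 and 3 of the 6 fits that left out 1 library (adjusted p up to 0.0527 without fenofibrate replicate 2, 0.107 without control replicate 3 and 0.0825 without control replicate 2). Mib1, the main ligase for Notch ligands, had a log2 fold change of 0.01 ± 0.05 SE, with an interval from -0.10 to 0.12.

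Other genes known as Notch targets moved in both directions. Nrarp and Dtx1, feedback genes induced by Notch in many cells, had 1 count in each group and 3 counts in control against 0. Ccnd1, the cyclin D1 gene, fell 2.04-fold (log2 fold change -1.03 ± 0.07 SE, adjusted p = 4.15e-05, edgeR), with no overlap between groups. It shares 23.4% of its exon bases with LTO1, a less counted gene on the other strand. Myc rose 1.16-fold and Snai2, a repressor gene of the neural crest, 1.34-fold, calls lost in 5 and 4 of the 6 fits that left out 1 library (adjusted p up to 0.0793 and 0.0991, without control replicates 3 and 1). Cdkn1a had a log2 fold change of 0.10 ± 0.04 SE (adjusted p = 0.0885). Acta2, a smooth muscle actin gene, was counted 0 times in each control library and 10, 1 and 10 times with fenofibrate, at least 6.78-fold higher against a floor of 3 counts over the group. It was below the filter, with adjusted p values of 0.0748 without the filter (edgeR) and 0.0119 with DESeq2. In this list 2 genes of 5 tested rose and 1 fell, 60% called against 39.1% of all genes.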

How the data were processed

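Bulk RNA of 3 control and 3 fenofibrate libraries was analysed. The deposited table holds raw counts per gene and FPKM made by the authors, per the file headers. HISAT2 2.0.4, StringTie 1.3.0 and GRCm39 are named in the submitters' processing notes without roles. The counting tool and strand setting are not given in the sources used here, so exons shared by genes on either strand can share reads. Coordinates in the table are those of GRCm38: GENCODE M21 holds 99.8% of the gene IDs, with identical start and end for 98.8% of those.

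Groups and replicate numbers come from sample titles. Counts were fitted over the whole table in R 4.3.3 with edgeR 4.0.16 (filterByExpr with its minimum count of 10, TMM, glmQLFit and glmQLFTest, no covariate), with Benjamini-Hochberg adjustment over 13629 genes and a threshold of 0.05. SE is the log2 fold change divided by the square root of F. Alternatives were DESeq2 1.42.0, upper-quartile scaling, no filter, a replicate block, limma 3.58.1 on log2(FPKM + 0.5, 0.1 or 1), and leaving out each library.

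The scripts were tested on simulated data with known changes. Of 50 genes changed 1.25-fold, 2% were recovered, against 50% at 1.5-fold, 88% at 2-fold and 96% at 4-fold. Of 128 calls, 10 were false. Far fewer genes were changed there than were called in the data, so these shares need not hold for the data.

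The 10 genes and the lists were chosen with earlier results of these data known. Named were the 10 genes, up to 4 called genes per list and direction with the largest changes, thinly counted list genes by their counts, and the 3 genes most like the most changed member; list genes that were not called and are named for their role (such as Spen, Mib1 and Pofut1) were chosen after their values were seen.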

Additional observations from a re-analysis of the deposited data

How the results depend on the processing

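The calls of Jag1 and Hes1 held in all 14 alternative settings, with log2 fold changes over the count fits of 1.19 to 1.37 and 1.68 to 2.06. Hes1 adjusted p values reached at most 0.00468. The number of the 10 genes called higher was 3 and ranged from 2 to 4 over all settings, and over the fits that left out 1 library also from 2 to 4. Which genes these were also changed. With DESeq2 and without fenofibrate replicate 3 the number was 4, with Hey1 added. Without the filter (edgeR) it stayed at 3, with Notch2 lost (adjusted p = 0.0722) and Hey1 gained (0.0301). The DESeq2 fit called 30.0% of all its genes and the unfiltered edgeR fit 19.6%. The number called lower was 1, and 0 with DESeq2, with limma on log2(FPKM + 0.1), with limma on log2(FPKM + 0.5) without a filter and with the replicate block, and 0 to 1 over the fits that left out 1 library. The Jag2 adjusted p reached 0.0721, and that of Notch2 0.198 (limma without a filter). Of the pathway list genes, 19 were called higher, and 12 with limma on log2(FPKM + 0.5), 12 with a pseudocount of 0.1, 12 with a pseudocount of 1 and 9 without a filter on FPKM, while the fits that left out 1 library gave 11 to 15. The number called lower, 17, ranged from 14 to 18. Over all genes 5326 were called, and 4248 to 4782 when 1 library was left out. The cause of these differences was not tested. No called gene of the lists changed sign. Replicate numbers are shared by the groups, but same-numbered libraries did not deviate together (correlations of -0.0227 to 0.0203). Such correlations cannot exclude a shared culture or batch. With the replicate block, 3 of the 10 genes were called higher and 0 lower, and 4540 over all genes. Depth limits Dll1, Heyl, Hey1 and the other thinly counted genes, where a few reads decide the value.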

Other observations

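Some genes of the lists were counted unevenly within the groups. Those given here were chosen after their values were seen, and Rfng, whose counts are given above, was another. Pofut1 had 954, 565 and 939 counts in control and 863, 975 and 662 with fenofibrate. Fbxw7, the ubiquitin ligase gene that marks the released Notch fragment for destruction, had 320, 539 and 573 counts in control and 562, 311 and 382 with fenofibrate. Aak1, a kinase gene of endocytosis, had 559, 661 and 735 against 433, 809 and 549. For each of these genes the spread within a group exceeded the difference between the group means.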
